A study of Mus musculus with 4 samples.

Results

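The cytoplasmic ribosomal protein genes were the 79 features listed in gene exon sense or gene intron sense whose symbol begins with Rpl or Rps and a digit, or is Rpsa, Rplp0, Rplp1 or Rplp2, with the ribosomal S6 kinases (Rps6k) left out. They were chosen by name, out of 12590 features listed in these categories. All 79 were listed in exon sense and 59 of them also in intron sense. By role, 30 encode proteins of the small (40S) subunit, 40 proteins of the large (60S) subunit and 3 the acidic P stalk (Rplp0, Rplp1, Rplp2), while 5 are paralogs of another member (Rpl7l1, Rpl22l1, Rpl36al, Rpl39l, Rps27l). Rps19bp1 matched the name pattern, but it encodes a nucleolar protein that binds RPS19 and not a ribosomal protein. Of 77 standard ribosomal protein genes that the pattern covers, Rps23, Rpl12, Rpl23a and Rpl35 were not in the sense rows analysed here.

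Strand-specific, rRNA-depleted RNA-seq was performed on total RNA from the testes of adult C57Bl/6J mice at postnatal day 60, with 2 libraries from Nef-sp-/- and 2 from Nef-sp+/- animals. *Nef-sp* encodes a nuclear exoribonuclease of the testis. The mutant allele is a 23-bp deletion that shifts the reading frame, made in one-cell embryos with a Cas9 nickase and a pair of guide RNAs, in a line set up from founder females crossed to wild-type males. The Nef-sp+/- controls also carry 1 copy of this deletion, so no library came from a wild-type animal. They are called the controls. *Nef-sp* itself (listed as 2610020H08Rik) had 1843 and 1693 normalized exon sense reads in the controls against 407 and 497 in Nef-sp-/-, 25.6% of the control mean. The labels do not say whether the libraries of a genotype came from separate animals, so the p-values measure only the spread between these libraries.

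Each ribosome is built from ribosomal RNA and one copy of most ribosomal proteins, which are made in matched amounts, so their genes are commonly expressed together at high levels. Their mRNAs start with a tract of pyrimidines (the 5′ terminal oligopyrimidine, or TOP, motif) that ties their translation to growth signals. Their genes are short, many carry small nucleolar RNAs (snoRNAs) in their introns, and mammalian genomes hold many processed pseudogenes, which are intronless copies of their spliced mRNAs. Several ribosomal protein genes lie on the X chromosome, which is silenced during male meiosis, and some of them have autosomal copies that are expressed mainly in male germ cells.

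The share of exon sense reads held by the members differed between genotypes by less than the spread of the replicates. The members held 0.970% and 0.934% of exon sense reads in the controls against 0.941% and 0.968% in Nef-sp-/-, from 15815159 to 26618821 exon sense reads per library. The groups overlapped, and the difference of the means was 0.00273 percentage points beside a pooled SD of 0.0227. Counting error was smaller than this, since the Wilson 95% interval of Nef-sp-/- replicate 2, for example, reached from 0.964% to 0.973%. The median member had 5685 exon sense reads over the 4 libraries, against 1220 for all exon sense features.

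Levels were compared between genes as exon sense reads per kb of transcript per 1000000 exon sense reads after TMM scaling. They were available for 78 members, since Rpl41 had no gene model in the mm9 annotation used. The median member stood at 104. The order was led by the P stalk base protein gene Rplp0 (chr5:116009476-116013736), with 807 and 820.2 in the controls against 849 and 834 in Nef-sp-/-. Rpl39l, the autosomal paralog of an X-linked protein of the peptide exit tunnel, came second with 654 and 625 in the controls against 656 and 663 in Nef-sp-/-. Both were nearly constant across the libraries, with SDs of 18.1 and 16.6 over all 4, and their ranges did not meet each other or that of the next gene.

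The next 8 genes were closer together. Among them, Rps29, a small zinc-binding protein of the 40S head, had a mean of 515 ± 27.2 (SD, n = 4), and Rps28 had 513 ± 15.5, so this pair did not differ beyond its spread. Rpl8, which lies next to the peptidyl transferase centre, followed at 428 ± 3.63. Rpl26 had 401 ± 18.9, the stalk protein gene Rplp1 had 389 ± 8.27 and Rpl32 had 378 ± 20.2, and Rplp1 overlapped both Rpl26 and Rpl32 library by library. Rps14, a protein of the 40S platform, lay below them at 330.0 ± 10.7. Of these 10 genes, 7 were also among the 10 highest when reads were divided by coding length in place of transcript length. Rpl41, the smallest ribosomal protein, had no length to divide by but the second largest number of reads of any member, 10121 and 18498 in the controls against 11228 and 10996 in Nef-sp-/-.

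**Figure D1:**
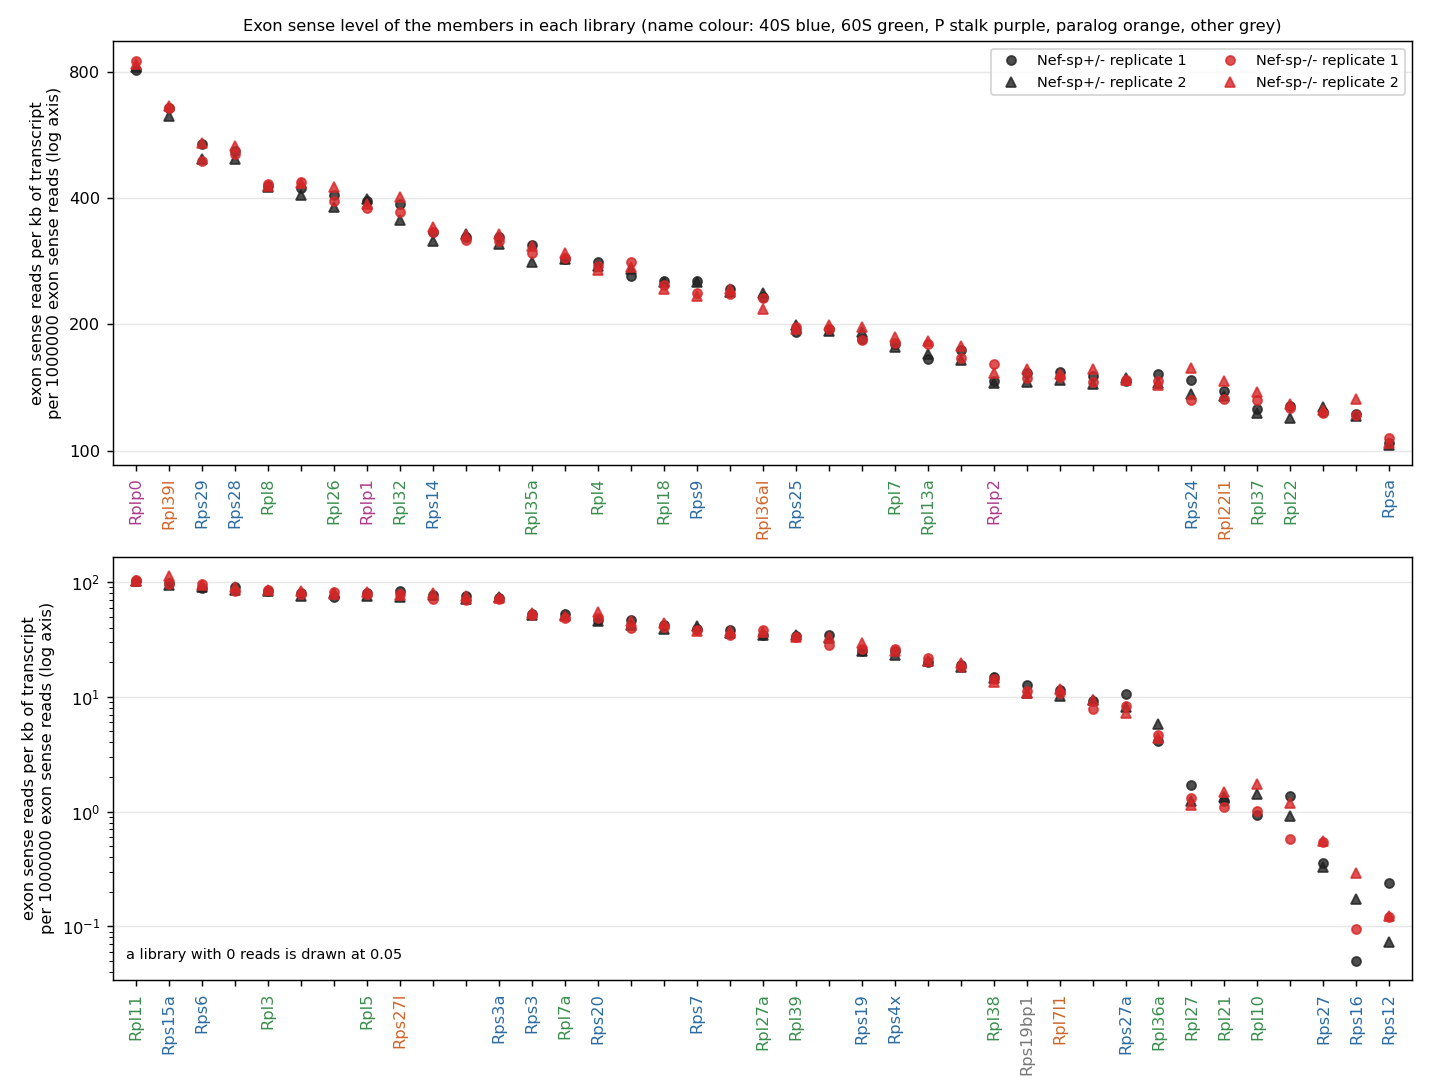
Exon sense reads per kb of transcript per 1000000 exon sense reads (TMM-scaled, log axis) for the 78 members with a gene model, in order of their mean, with 1 point for each library (circles replicate 1, triangles replicate 2) and names for the genes given in the text. From Rplp0 at 828 the levels fall steadily, and the last 7 genes, from Rpl27 to Rps12, lie between 1.35 and 0.139, with the points of both genotypes mixed at most genes.

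The median level was 103 over 30 genes of the 40S subunit and 87.6 over 39 of the 60S subunit, and the 3 stalk genes lay between 151 (Rplp2) and 828. The members did not sit at a common level. Among those past the expression filter, the highest was 818 times the lowest.

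The X-linked members were low. Rpl39 stood at 33.7 ± 0.663 (SD, n = 4), Rps4x at 24.96 ± 1.23, Rpl36a at 4.71 ± 0.752 and Rpl10 at 1.28 ± 0.382. Their median was 14.8, and that of 68 autosomal standard genes was 124, of which 13 lay below Rpl39. For 2 of the X-linked genes an autosomal paralog was listed. In each library Rpl39l stood between 18.2 and 20.1 times above Rpl39. Rpl36al, which was set beside Rpl36a after its values were seen, stood between 40.96 and 56.8 times above Rpl36a in each library. The genes of each pair differ in how much of their spliced sequence also occurs elsewhere in the genome. Among windows across exon junctions, searched as described below, 89.8% of those of Rpl39 and 5.10% of those of Rpl39l had an identical copy. For Rpl36a and Rpl36al these shares were 93.4% and 40.8%. The part of such copies in the low X-linked levels and in the ratios of these 2 pairs was not tested. Among paralogs of autosomal genes, Rpl22l1 and Rpl22 were at nearly the same level, with ratios from 1.05 to 1.13. Rpl7l1, whose product acts in ribosome assembly, stood far below Rpl7, with ratios from 0.0576 to 0.0634. The size of this ratio depends on the length used, and per kb of coding sequence it was 0.150. Rps27l reached 78.4 ± 3.82 while Rps27 had 2, 3, 3 and 3 reads, too few for a ratio to carry weight. The paralogs Rpl3l, Rpl10l, Rpl26l1 and Rps4l were not in the sense rows analysed here. Rps19bp1 stood at 11.3 ± 0.854.

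At the bottom of the order, 7 members had fewer than 100 exon sense reads over all 4 libraries, a limit set after the values were seen. Rps12, which binds near the beak of the 40S subunit, had 2 and 1 reads in the controls against 1 and 1 in Nef-sp-/-. Rps16 had 0 and 3 in the controls against 1 and 3 in Nef-sp-/-, where a count of 0 allows up to 3 reads. Rps27 had 2 and 3 in the controls against 3 and 3 in Nef-sp-/-. Those 3 genes did not pass the expression filter. The other 4 did, among them Rpl27 at 17, 20, 13 and 11 reads, Rpl10 at 12, 30, 13 and 22, and Rpl21 at 18, 32, 16 and 21, given for control replicates 1 and 2 and then Nef-sp-/- replicates 1 and 2. Their products are standard components of the cytoplasmic ribosome. All 7 were near 0 in both genotypes.

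The reads were up to 50 bases long and only reads that matched the genome perfectly were kept, so copies of the spliced mRNA elsewhere in the genome bear on what could be counted. How reads with several matches, or reads across splice junctions, were assigned is not given in the sources used here. The 50-base windows of each member's spliced transcript were therefore searched for in mm9 on both strands. A window that crosses an exon junction is interrupted by the intron in its own gene, so a match lies at another place, as in an intronless copy. The stretches below are 50 bases of coding sequence in transcript orientation, one read length, with the last 25 bases of one exon in lower case and the first 25 of the next in capitals. They are shown for 4 near-0 genes and, for contrast, for Rpl8, a gene with few copies.

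Rpl21 (mm9, chr5:147645814-147645838 and chr5:147646024-147646048, plus strand): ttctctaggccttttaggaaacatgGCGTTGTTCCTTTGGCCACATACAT
Rpl10 (mm9, chrX:71517033-71517057 and chrX:71517139-71517163, plus strand): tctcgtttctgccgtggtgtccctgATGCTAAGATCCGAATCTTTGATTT
Rps12 (mm9, chr10:23506570-23506594 and chr10:23505786-23505810, minus strand): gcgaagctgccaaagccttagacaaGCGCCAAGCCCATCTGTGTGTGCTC
Rps27 (mm9, chr3:90017115-90017139 and chr3:90016942-90016966, minus strand): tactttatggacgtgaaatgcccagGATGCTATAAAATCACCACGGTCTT
Rpl8 (mm9, chr15:76734856-76734880 and chr15:76734969-76734993, plus strand): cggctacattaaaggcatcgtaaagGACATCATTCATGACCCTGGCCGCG

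The Rpl21 stretch occurs 31 times in mm9, for example at chr1:56508293-56508342 on the plus strand. That of Rpl10 occurs 6 times, and those of Rps12 and Rps27 occur 2 times each, 1 of the Rps27 copies at chr9:114891686-114891735 on the minus strand. The stretch of Rpl8, which stood at 428 reads per kb, occurs 0 times.

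Over whole transcripts, between 80.8% and 100% of the junction windows of the 7 near-0 genes had an identical copy in the genome. Such copies were common among the members in general. The other 71 with a gene model had a median of 79.3%, and 32 of these 71 reached the same 80.8% or more. Rps29, at 515 reads per kb, had copies of 100% of its junction windows. Across 78 members, the level and the share of junction windows with a copy had a Spearman correlation of -0.39, and the level and the share of all windows found once in the genome one of 0.10. These describe genes of the same libraries and carry no test, and the part of such copies in the low counts was not tested.

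**Figure D2:**
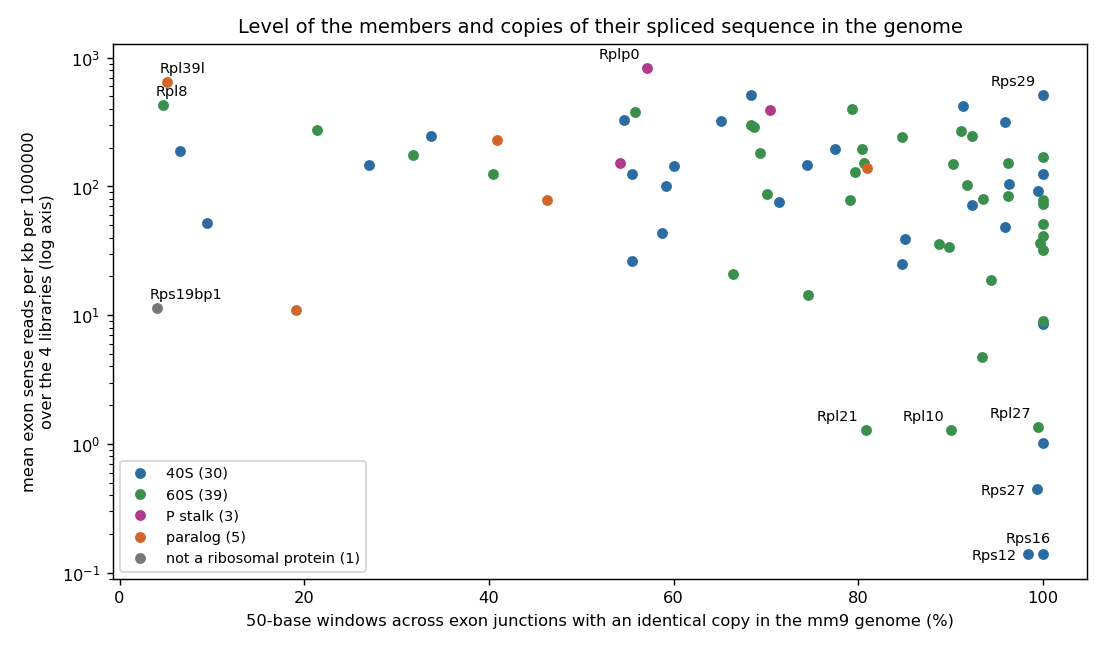
Mean exon sense level, in reads per kb, over the 4 libraries (log axis) against the percent of 50-base windows across exon junctions with an identical copy in mm9, 1 point for each of 78 members, coloured by role. The 7 genes below 2 all lie at 80.8% or more, while other genes at 100%, such as Rps29, stand far higher.

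Related gene lists were read in the same way. The median share of windows found once in the genome was 25.1% over the members themselves, with 62 of 78 genes below 50%. The median was 80.2% over 76 mitochondrial ribosomal protein genes and 71.9% over 46 ribosome biogenesis factors. It was 47.8% over 16 ribosomal and TOP mRNAs outside the name pattern, with 8 of them below 50%. The median share of junction windows with a copy was 80.7% for the members, 5.38% for the mitochondrial ribosomal protein genes 4.87% for the biogenesis factors and 37.5% for the ribosomal and TOP mRNAs, whose upper quartile was 86.7%. Counts of the ribosomal protein genes are thus uncertain wherever a read could belong to the gene or to a copy.

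The starts of the genes were compared with the RefSeq promoter table of GRCm38.p6, which held 69 promoters of 58 of the 78 ribosomal protein genes, each reaching from 250 bases before to 50 after the start. The letters CTTTC, a core of the TOP motif, were on the sense strand between 15 bases before and 35 after the start in 27.5% of these promoters and in 6.2% of 32781 promoters of other genes. Short stretches are printed here, positioned in mm9 by exact match of the 300 bases, with CTTTC in capitals. Rpl39l, Rpl26 and Rpl35a are those of the highest level with these letters, Rplp2 is a stalk gene, and Rps27 is 1 of the near-0 genes. Counted from the annotated start, the letters begin at -6 in Rpl39l, 25 in Rpl26, 2 in Rpl35a, 0 in Rplp2 and -8 in Rps27. Where these mRNAs start in the testis was not measured, so the letters are not shown to lie at the mRNA start.

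Rpl39l (mm9, chr16:10170303-10170332, plus strand): tagctcccaggcCTTTCcggatttccggtg
Rpl26 (mm9, chr11:68715081-68715110, plus strand): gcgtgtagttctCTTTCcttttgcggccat
Rpl35a (mm9, chr16:33056558-33056587, plus strand): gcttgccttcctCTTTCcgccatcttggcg
Rplp2 (mm9, chr7:148633538-148633567, plus strand): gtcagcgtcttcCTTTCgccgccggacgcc
Rps27 (mm9, chr3:90017561-90017590, minus strand): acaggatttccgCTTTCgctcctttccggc

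Searched on both strands over the whole 300 bases, GGAAGT, the letters of an ETS-type site, were in 47.8% of the member promoters and 23.7% of the others. AAGATGGC, the letters of a YY1 site, were in 11.6% and 2.73%, and GGGCGG, a GC box, in 59.4% and 35.6%. The letters CCAAT were in 30.4% and 37.4%, and TATAAA in 10.1% and 13.6%. CTTTCC, which can overlap CTTTC, was in 52.2% and 26.5%. A match is a description of letters and not a site, and Rps27 shows that the near-0 genes can hold them too.

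The comparison of genotypes asked whether loss of *Nef-sp* changed transcript amounts in the testis. No ribosomal protein gene passed the threshold in exon sense reads. Of 79 members 76 passed the expression filter, and 0 had an adjusted p below 0.05 by the quasi-likelihood test of edgeR after Benjamini-Hochberg correction, against 0.00932% of 10728 features tested (1, *Nef-sp* itself). At an unadjusted p below 0.05 there was 1 member, Rps20, against 4.8% of all features. With DESeq2, 0 of 79 members passed at either level, against 0.0161% of 12415 features after adjustment and 1.14% before. The adjusted p of the members lay between 0.954 and 0.999.

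The estimates were small in both directions. The median log2 fold change of the 76 members, Nef-sp-/- over Nef-sp+/-, was 0.02 and that of all features tested was -0.00022. Of the 76, 46 were above 0 (60.5%, against 49.9% of all features) and 30 below. Without TMM scaling 38 were above 0 (50.0%, against 40.7% of all features), and without Nef-sp-/- replicate 2 there were also 38 (against 50.2%), with medians of 0.00053 and 0.00024. Without Nef-sp-/- replicate 1 there were 56 (73.7%, against 50.7%). They ran from -0.32 to 0.16, the latter for the near-0 gene Rpl10. None of the 76 had an absolute log2 fold change above 0.5, against 2.41% of all features, and the median size was 0.048 for the members and 0.071 for all. Between the libraries of a genotype, the median absolute log2 ratio of a member was 0.059 in Nef-sp+/- and 0.060 in Nef-sp-/-, and between the means of the genotypes it was 0.047.

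A 95% interval lying wholly within 0.5 of 0 on the log2 scale was found for 70 of the 76 members (92.1%, against 76.9% of all features). The 6 others, among them Rpl10, Rpl21, Rpl27, Rpl36a and Rps27a, had few reads and standard errors of up to 0.40, against a median of 0.06. Their intervals reached beyond 0.5 on at least 1 side, for example to -0.98 for Rpl27 and to 0.95 for Rpl10.

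The Nef-sp-/- libraries both exceeded both controls for 17 of the 76 members (22.4%), against 16.4% of all features. Both lay below the controls for 10 of the 76 (13.2%), against 18.1%. The 17 were 4 of the 40S (among them Rps6, Rps19 and Rps20), 10 of the 60S (among them Rpl3, Rpl7, Rpl11 and Rpl13a), the stalk genes Rplp0 and Rplp2, and Rpl39l. The 10 were 3 of the 40S (Rps3a, Rps7, Rps9), 5 of the 60S (Rpl4, Rpl7a, Rpl18, Rpl38, Rpl39), Rplp1 and Rpl36al.

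Rps20, a protein of the 40S head, had 3199.5 and 3179 normalized exon sense reads in the controls against 3329 and 3758 in Nef-sp-/-. Its groups did not overlap, but Nef-sp-/- replicate 2 stood apart from the others. The log2 fold change was 0.15 ± 0.07 (SE, adjusted p = 0.954 in edgeR's quasi-likelihood test). It was 0.07 without Nef-sp-/- replicate 2 and 0.24 without Nef-sp-/- replicate 1. Rpl37, a zinc-binding protein of the 60S subunit, had 2026 and 1984 against 2127 and 2229, a log2 fold change of 0.12 ± 0.06. Rpl13a, known also for its part in translational silencing after interferon-gamma, had 3188 and 3267 against 3452 and 3514, with 0.11 ± 0.06. These 3 were higher in both Nef-sp-/- libraries.

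Rps9, a protein of the mRNA entry region, was lower in both Nef-sp-/- libraries, with 3568 and 3553 normalized reads in the controls against 3342 and 3286 in Nef-sp-/-, and had a log2 fold change of -0.10 ± 0.06. The stalk gene Rplp2 had 1149 and 1138 against 1263 and 1199, with 0.11 ± 0.06. The next smallest unadjusted p-values belonged to Rpl27a, Rps15a, Rps6, Rps19 and Rps27a, with log2 fold changes of 0.11, 0.12, 0.09, 0.14 and -0.23. Rps6 is the S6 kinase substrate of the 40S subunit, Rps19 is the gene most often mutated in Diamond-Blackfan anaemia, and Rps27a is made as a fusion with ubiquitin. Each of these 9 genes after Rps20 had an unadjusted p above the threshold.

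Each role held genes on both sides of 0. Over 27 tested genes of the 40S subunit the median log2 fold change was 0.0062, with 15 above 0 and 12 below. Over 40 of the 60S subunit it was 0.028, with 26 above and 14 below. The stalk genes were at 0.05 (Rplp0), -0.05 (Rplp1) and 0.11 (Rplp2), and the 5 paralogs lay between -0.07 and 0.07 with a median of 0.029. Rpl39l, at 0.04 ± 0.06, and its X-linked parent Rpl39, at -0.05 ± 0.08, both had intervals that held 0. The other X-linked genes Rps4x, Rpl36a and Rpl10 were at 0.09, -0.19 and 0.16, with standard errors of 0.08, 0.23 and 0.36.

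**Figure D3:**
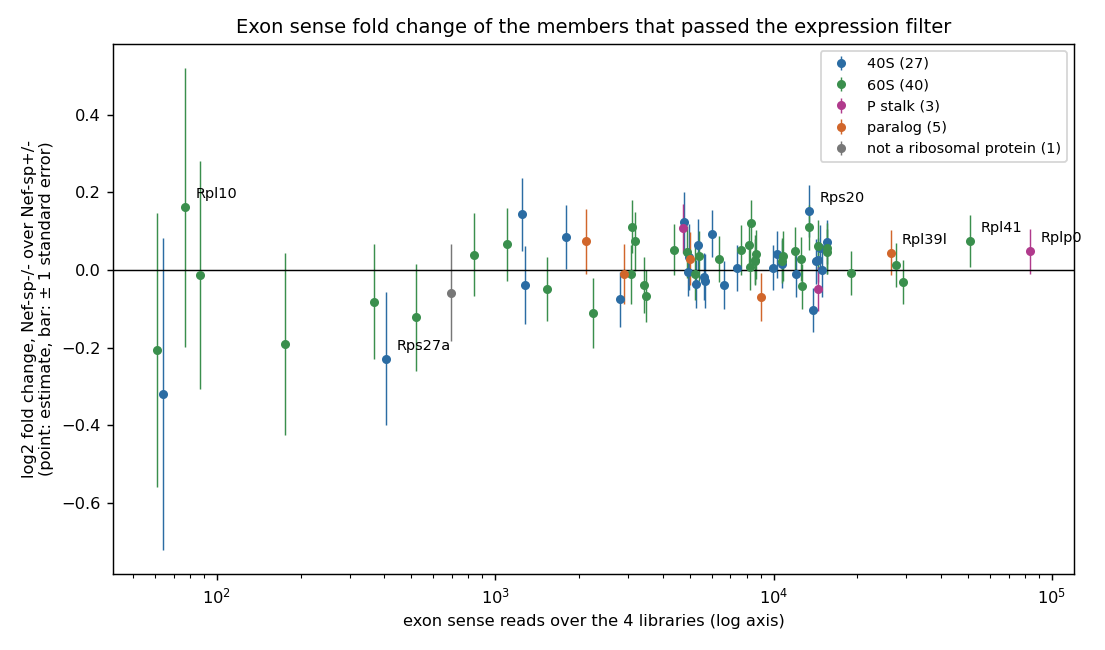
Log2 fold change of exon sense reads, Nef-sp-/- over Nef-sp+/-, with bars of 1 standard error, against the number of exon sense reads over the 4 libraries (log axis) for the 76 members past the filter, coloured by role. The estimates lie between -0.32 and 0.16, and the widest bars belong to the genes with the fewest reads.

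Lists of related genes were read from the same exon sense fit. Of 45 ribosome biogenesis factors tested, 0 passed before or after adjustment, with a median log2 fold change of 0.0046. The smallest unadjusted p-values there belonged to Nop16 (0.24 ± 0.11), Utp6 (-0.28 ± 0.14) and Emg1 (0.13 ± 0.08). Of 16 ribosomal and TOP mRNAs outside the name pattern, 0 passed after adjustment. Before it 2 did (12.5%, against 4.8% of all features), Eif3f, a subunit of an initiation factor, at -0.20 ± 0.06 and the poly(A) binding protein gene Pabpc1 at -0.15 ± 0.06, while Fau, which encodes ribosomal protein S30, was at 0.07 ± 0.06. Of 75 mitochondrial ribosomal protein genes, 0 passed after adjustment and 2 before it (2.67%), Mrps2 (-0.33 ± 0.14) and Mrps21 (-0.24 ± 0.11), with Mrps23 next at -0.16 ± 0.08. Their median was -0.02, with 27 of 75 above 0.

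In bulk testis, fewer cells of a type and less RNA per cell cannot be told apart. Of 39 marker symbols in 8 lists of testis cell types, 29 were tested, and 0 passed after adjustment and 4 before it (13.8%, against 4.8% of all features). The summed markers of 5 lists overlapped between genotypes, while those of Leydig cells, peritubular myoid cells and blood were lower in both Nef-sp-/- libraries. For Leydig cells all 5 markers were listed, and their summed normalized reads ran from 17369 to 17486 in Nef-sp+/- and from 13932 to 16545 in Nef-sp-/-, although the median log2 fold change of the 5 was 0.08. For peritubular myoid cells, with 4 of 4 listed, they ran from 1266 to 1305 and from 1114 to 1229. For blood, with 3 of 5 listed, they ran from 258 to 360 and from 211 to 213, and the haemoglobin genes Hba-a1 and Hbb-b2 were not listed. Amh of Sertoli cells was not listed either. The macrophage gene Adgre1 was listed under its older symbol Emr1, and the 39 symbols hold both names. The markers of spermatids, the most abundant list, ran from 313286 to 384778 and from 380824 to 390362. The part of these lists in the values of the ribosomal protein genes was not tested.

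Intron sense reads of the members were few and were dominated by 1 gene. The 59 members listed there had a median of 26 reads over the 4 libraries, against 45 for all 6616 intron sense features. Rps3, a protein of the mRNA entry channel, held 65.9% of them, with 1587 and 2828 reads in the controls against 1422 and 1305 in Nef-sp-/-. This is 96.4 intron reads for every 100 exon reads of the gene, in both genotypes together. The introns of Rps3 (chr7:106626406-106632248, minus strand) hold the snoRNA genes Snord15a (chr7:106631295-106631442) and Snord15b (chr7:106628073-106628217), on the same strand. The counts do not give the intron, so reads of the snoRNAs and of unspliced Rps3 RNA cannot be told apart.

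The members with most intron reads after Rps3 were Rps24 (94, 113, 85 and 127 reads in control replicates 1 and 2, then Nef-sp-/- replicates 1 and 2) and Rpl5, which binds the 5S rRNA (91, 125, 65 and 75). Rps25 followed, with 257 reads over all libraries. Of the listed members with a gene model, 21 had an annotated snoRNA in an intron and a median of 43 reads, and 37 had none and a median of 21.

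The order of introns did not follow that of exons. Rps12, with 5 exon reads in all, had 198 intron reads (39, 69, 40 and 50), and 3 snoRNAs lie in its introns. Rps27, with 11 exon reads in all, had 28 intron reads and no annotated snoRNA. Rpl27 had 63 intron reads against 61 exon reads, and Rpl21 had 43 against 87. In these 4 near-0 genes the intron counts were above the 26 reads of the median member. At the other end, Rpl39l, Rpl41 and Rplp1 had 0.170, 0.254 and 0.292 intron reads for every 100 exon reads, the lowest ratios among members past both filters.

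In intron sense, 23 of 59 members passed the expression filter, and 0 had an adjusted p below 0.05 in edgeR's quasi-likelihood test, against 0.0294% of 3403 features. At an unadjusted p below 0.05 there were 2, Rplp1 and Rps3, against 2.35%. With DESeq2 there was 1, Rps3, against 0.151%, and 0 after adjustment. The Nef-sp-/- libraries both exceeded both controls for 3 of the 23 (Rpl21, Rplp1, Rps25), against 13.5% of all features, and were both below them for 4 (Rpl5, Rpl27, Rpl35a, Rps3), against 14.5%. The median log2 fold change was 0.03, against 0.01 for all features, with 13 members above 0 and 10 below.

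Rps3 intron reads were lower in both Nef-sp-/- libraries. After normalization they were 1779 and 2081 in the controls against 1693 and 1435 in Nef-sp-/-, and the log2 fold change was -0.30 ± 0.14 (SE, adjusted p = 0.9996 in edgeR's quasi-likelihood test). Its exon reads overlapped between genotypes, at 1864 and 1839 in the controls against 1821 and 1894 in Nef-sp-/- and a log2 fold change of 0.0049 ± 0.06. With the replicate numbers crossed between genotypes as a block, a fit added after the data were seen, Rps3 was the 1 member past the threshold (adjusted p = 0.0120 in edgeR's quasi-likelihood test), against 0.0588% of 3403 features. The labels give no ground for that pairing.

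Rplp1 had 6 and 8 intron reads in the controls against 14 and 14 in Nef-sp-/-, for which the log2 fold change was 1.35 ± 0.46 (adjusted p = 0.9996 in edgeR's quasi-likelihood test). Its exon reads were slightly lower in Nef-sp-/-. Rps24 (0.38 ± 0.20), Rpl35a (-0.78 ± 0.47) and Rpl5 (-0.27 ± 0.19) came next by unadjusted p. None of the 23 members had a 95% interval within 0.5 of 0, with a median standard error of 0.30, so each interval held values beyond 0.5 on at least 1 side.

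With most of these reads from Rps3, the sums were read with and without it. The members held 0.508% and 0.525% of intron sense reads in the controls against 0.469% and 0.435% in Nef-sp-/-, groups that did not overlap. The difference of the means was -0.0647 percentage points beside a pooled SD of 0.0195. Without Rps3 the shares were 0.177% and 0.156% in the controls against 0.169% and 0.171% in Nef-sp-/-, and the difference was 0.0036. Over all members there were 1.59 and 1.62 intron reads for every 100 exon reads in the controls against 1.44 and 1.41 in Nef-sp-/-. Without Rps3 the ratios were 0.551 and 0.482 against 0.520 and 0.553, and the groups overlapped.

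**Figure D4:**
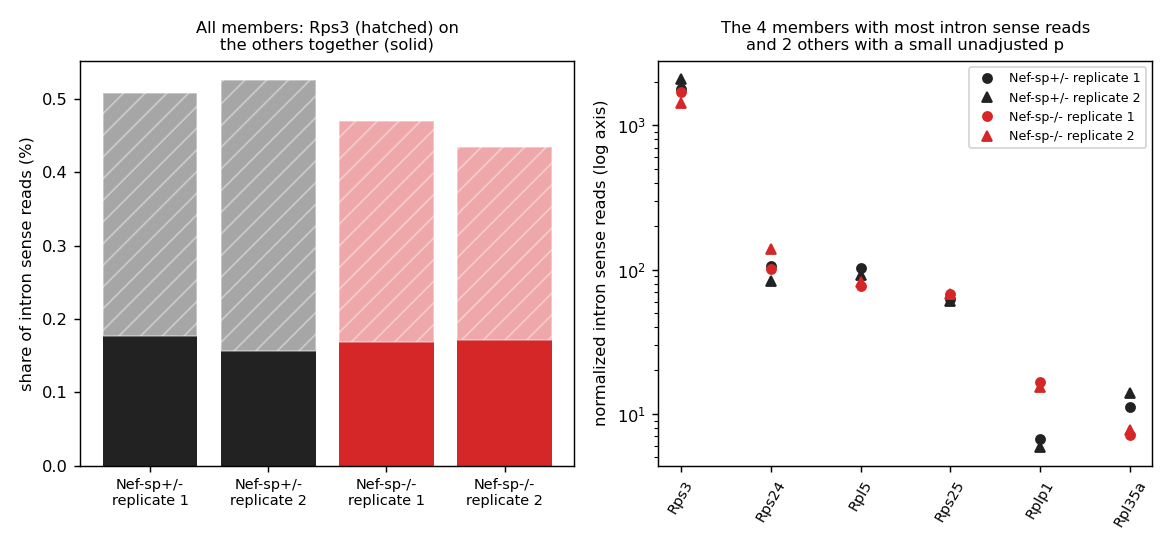
Left, share of intron sense reads (%) held by the members in each library, with Rps3 hatched on top of all others (solid); right, normalized intron sense reads (log axis) of 6 members, the 4 with most of them and 2 others with a small unadjusted p, 1 point for each library. The Nef-sp-/- bars end lower, at 0.469% and 0.435% against 0.508% and 0.525%, while the solid parts lie between 0.156% and 0.177% in all 4 libraries.

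Reads antisense to the members were few and were not tested. Rpl35 and Rpl23a match the name pattern and are counted here, though they were not in the sense rows. They were scaled to the mean total of their category. Of 13 ribosomal protein genes with exon antisense reads, 1 was higher in both Nef-sp-/- libraries than in both Nef-sp+/- libraries (7.69%, against 14.8% of all 2346 exon antisense features) and 4 were lower in both (30.8%, against 18.4%). Of 6 with intron antisense reads, 2 were higher (33.3%, against 13.9% of 2754 features) and 1 was lower (16.7%, against 19.2%). These counts rest on between 0 and 53 reads per library and gene.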

How the data were processed

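Total testis RNA of 2 Nef-sp-/- and 2 Nef-sp+/- libraries was depleted of rRNA, made into stranded libraries and sequenced for 50 cycles. The authors trimmed adapters, mapped reads to mm9, kept perfect matches only and deposited raw counts per feature in 10 annotation categories by strand. The table also holds a mean and a fold change, p and adjusted p from the authors' own comparison (DESeq2 per the labels), which were not used. Libraries held 20659865 and 34442517 (Nef-sp+/-) and 21104999 and 20685289 (Nef-sp-/-) reads, a depth that limits the precision of low counts. No 2 libraries of a genotype agreed within sampling noise.

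Counts were tested within gene exon sense and gene intron sense with edgeR 4.0.16 (R 4.3.3): TMM scaling, filterByExpr with a minimum count of 10, glmQLFit and glmQLFTest, Benjamini-Hochberg adjustment over each category and a threshold of 0.05. The script was tested on simulated data. Normalized reads are counts scaled by the TMM library size to the mean of the libraries, and levels are divided by the length of the shortest CCDS-tagged transcript of GENCODE vM1. Windows of 50 bases were searched in NCBIM37 (mm9), and promoters are from RefSeq. samtools 1.23.1, Python 3.11.15, pandas 2.3.3, scipy 1.17.1 and matplotlib 3.10.9 were used.

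Members, lists and tests were chosen with earlier results of these data known. Genes were named by rule: the 10 highest and 3 lowest levels, the 10 (exon) and 5 (intron) smallest unadjusted p-values, paralogs with parents, X-linked members, extremes of intron reads and ratio, and 3 genes from each related list. Genes listed by overlap or by under 100 reads, and the contrast Rpl8, were chosen after their values were seen. Some members that these rules name are not reported here. Alternatives were other size factors (DESeq2 1.42.0), library sizes without TMM, other filters, DESeq2, a single fit over all categories, a replicate block, and each library left out.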

Additional observations from a re-analysis of the deposited data

Results flagged for a closer look

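Antisense reads were counted but entered no tested comparison. Of 19 antisense values of ribosomal protein genes, 3 were higher and 5 lower in both Nef-sp-/- libraries, shares given above beside those of all antisense features. The 3 are given here because they lie above the controls in reads outside the main measurement. Rps25 exon antisense reads, scaled to the mean total of their category, averaged 12.24 in Nef-sp-/- and 7.839 in Nef-sp+/-, from 9 and 12 reads against 5 and 14. Rpl36 intron antisense reads averaged 12.15 against 8.95, from 10 and 11 reads against 8 and 12. Rpl35, which was not in the sense rows analysed here, had intron antisense reads that averaged 6.936 against 3.882, from 6 and 6 reads against 3 and 6. The 5 lower ones averaged between 0 and 5.21 scaled reads in Nef-sp-/- against 1.87 to 10.8 in Nef-sp+/-. These differences were not tested, and counts this low carry a large counting error.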

How the results depend on the processing

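The count of members past the threshold in exon sense was 0 under every alternative run, and that in intron sense was 0 under all but 1. With the replicate block in its crossed form, added after the data were seen, it was 1 (Rps3). With the replicate block as the labels number it, 0 members passed in either category, and the numbers are no sign of pairing, since deviations of same-numbered libraries correlated at -0.091 in exons and -0.154 in introns. The median exon log2 fold change, 0.02, fell to 0.00053 with library sizes of the category without TMM and ran from 0.00024 without Nef-sp-/- replicate 2 to 0.047 without Nef-sp-/- replicate 1. The median intron log2 fold change ran from -0.16 to 0.15 when single libraries were left out, lowest without Nef-sp-/- replicate 1 and highest without Nef-sp-/- replicate 2. Among the related lists, the calls of the TOP mRNA Eef1d and the mitochondrial ribosomal protein gene Mrps36 changed without Nef-sp+/- replicate 2. That fit assumes that the lone control library varies like the others. The share of all features called in it is not given here, so no result is read from it. As a share of all reads, intron reads of the members were 0.0118% and 0.0117% in Nef-sp+/- against 0.0105% and 0.0104% in Nef-sp-/-. Those groups did not overlap, with a difference of -0.0013 percentage points beside a pooled SD of 7.7e-05. That SD rests on 2 libraries per genotype and on 2152 to 4025 member reads per library, so counting error is not small beside it. As a share of intron reads without Rps3 the difference was 0.0036, and the groups overlapped. The difference in intron reads per 100 exon reads was 0.020 without Rps3 and -0.216 over genes listed in both categories. The cause of these changes was not tested, other than that Rps3 holds most of the intron reads.

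Low counts limit the intron results, and mm9 copies of spliced ribosomal protein mRNAs limit the exon counts in a way the deposited counts cannot resolve.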
